A study of Homo sapiens with 8 samples.

Results

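The upstream miRNA group of the imprinted DLK1-DIO3 locus on human chromosome 14 runs from the miR-493 hairpin to the miR-136 hairpin. It was taken as 10 mature miRNAs from 7 hairpins, out of 2588 mature names in the small RNA-seq table: hsa-miR-493-5p, hsa-miR-493-3p, hsa-miR-337-5p, hsa-miR-337-3p, hsa-miR-431-5p, hsa-miR-433-3p, hsa-miR-127-3p, hsa-miR-432-5p, hsa-miR-136-5p and hsa-miR-136-3p (the prefix hsa is left out from here on). These names were chosen by their position on chromosome 14 and with their read levels in the 4 cell lines in view, so these levels are given as a description, and calls made on them in fits over all miRNAs support nothing. The libraries came from an ovarian cancer line (ES-2), a melanoma line (MV-3), a hepatocellular carcinoma line (Huh-7) and a lung adenocarcinoma line (A-549). All were parental, untreated lines grown in DMEM with fetal bovine serum and harvested 48 h after seeding. Each line had 2 libraries. The labels do not say whether the 2 came from separate cultures, so the spread between them may be technical.

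Imprinted genes are expressed from the allele of only 1 parent. In the DLK1-DIO3 locus, the protein-coding genes DLK1, RTL1 and DIO3 are active on the paternal chromosome, whereas non-coding transcripts, among them MEG3, the antisense of RTL1 and MEG8, are made from the maternal chromosome and carry many miRNAs. The locus is known for its activity in the embryo, placenta and brain, and its miRNAs are low in many adult tissues. Each hairpin can yield a mature miRNA from its 5p and from its 3p arm, and the seed near the 5′ end of a mature miRNA is the main contact with target mRNAs.

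Positions and sequences show what sets these miRNAs apart from each other. In GENCODE release 44 on GRCh38, the 7 hairpins lay on the plus strand within 15.7 kb (chr14:100869060-100884783), each inside an intron of the lncRNA gene MIR493HG. MIR493 and MIR337 lay before RTL1. The other 5 hairpins, MIR431, MIR433, MIR127, MIR432 and MIR136, lay inside the coding sequence of RTL1 on the opposite strand, which makes their miRNAs perfectly complementary to the RTL1 mRNA. RTL1, a retrotransposon-derived gene needed in the placenta, spans chr14:100879753-100903722 on the minus strand. A gap of 137 kb separated MIR136 from MIR379, the first hairpin of the large downstream cluster. All 10 members were found among the RefSeq mature miRNAs of GRCh38.p14. They are printed 5′ to 3′, in the order of the locus, with the seed (bases 2 to 8) in capitals.
miR-493-5p: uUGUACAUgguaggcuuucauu
miR-493-3p: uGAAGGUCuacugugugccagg
miR-337-5p: gAACGGCUucauacaggaguu
miR-337-3p: cUCCUAUAugaugccuuucuuc
miR-431-5p: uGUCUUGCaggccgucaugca
miR-433-3p: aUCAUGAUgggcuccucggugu
miR-127-3p: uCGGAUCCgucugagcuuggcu
miR-432-5p: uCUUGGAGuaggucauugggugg
miR-136-5p: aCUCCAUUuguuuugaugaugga
miR-136-3p: cAUCAUCGucucaaaugagucu
The 10 seeds were all distinct, and no other name among 2370 RefSeq mature miRNAs shared 1 of them. The group is therefore a neighborhood on the chromosome and not a seed family. Mature lengths ran from 21 to 23 bases and GC contents from 34.8% to 59.1%, so that levels of different members were compared without a term for length.

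The 8 libraries held 1173902 to 2670030 miRNA reads. Levels are given as library CPM, the reads of a miRNA per 1000000 miRNA reads of the library, or as normalized CPM, the deposited values, which also hold the TMM scaling factor of the library. That scaling raised A-549 against Huh-7, so folds on the normalized scale are higher than folds of library CPM. The 3-read limit that a count of 0 allows was 0.845 to 2.45 normalized CPM, and such limits and the intervals given here cover counting error only. Of the marker miRNAs, the liver list summed to between 146743 and 160277 library CPM in Huh-7 and to at most 2879 elsewhere. The melanocytic list was nearly absent from MV-3, at 1.29 to 1.70 library CPM with 3 of its 4 miRNAs at 0 in both libraries. In these bulk samples, fewer cells that express a miRNA and less of it per cell cannot be told apart.

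The members were highest in A-549. Summed over the 10, A-549 held 4471 and 3726 reads, or 1741 ± 94.5 library CPM (SD, n = 2), which was 0.167% and 0.181% of all miRNA reads. Huh-7 held 15 and 132 reads (41.9 ± 49.4 library CPM), ES-2 held 0 and 33 reads (7.19 ± 10.2 library CPM), and MV-3 held 7 and 4 reads (4.27 ± 2.39 library CPM). Both A-549 libraries were far above the other 6, and the replicates of Huh-7 and of ES-2 were far from each other. Against the A-549 mean, replicate 2 of Huh-7 reached 4.41% and every other library of the 3 remaining lines stayed at or below 0.826%. In A-549, 9 of 10 members had more than 3 reads in both libraries, against 3 of 10 in Huh-7 and 0 of 10 in ES-2 and in MV-3.

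**Figure D1:**
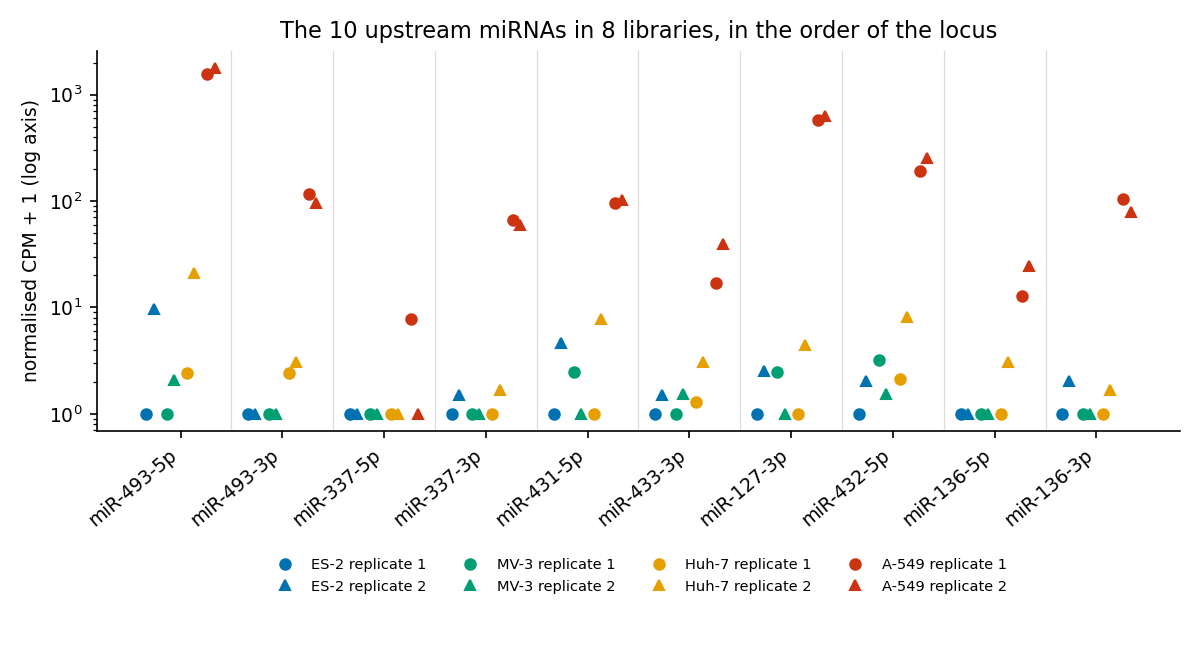
Normalized CPM plus 1 (log axis) of each of the 10 members in the order of the locus, with 1 point per library, colors for the 4 lines and circles and triangles for replicates 1 and 2. The A-549 points lie above all other libraries for 9 of the 10 members, as they do for 22.2% of all tested miRNAs. miR-337-5p, with 11 and 0 reads in A-549, is the exception.

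The 2 miRNAs of the miR-493 hairpin stood first in the group and held most of its reads. miR-493-5p, a miRNA reported to restrain the growth factor receptor IGF1R, had 2554 and 2174 reads in A-549, 5 and 59 in Huh-7, 0 and 17 in ES-2, and 0 and 2 in MV-3. It was the most abundant member in A-549, at 1006 ± 69.6 library CPM, took 57.1% and 58.3% of the reads of the group, and ranked 49 among all miRNAs in each A-549 library. miR-493-3p, from the same hairpin, had 188 and 115 reads in A-549, 5 and 6 in Huh-7, and 0 in the 4 libraries of ES-2 and MV-3. Both arms of this hairpin were thus seen in both Huh-7 libraries, where the only other members with reads in both were miR-433-3p and miR-432-5p.

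From the miR-337 hairpin, also before RTL1, the 3p arm was the detected product. miR-337-3p had 105 and 72 reads in A-549, 0 and 2 in Huh-7, 0 and 1 in ES-2, and 0 in both MV-3 libraries. miR-337-5p had 11 and 0 reads in A-549 and 0 in the 6 other libraries. It was the only member whose A-549 libraries overlapped with the other lines, and the only one that did not pass the filter on low values. Of the 9 that passed, all but miR-493-5p did so only through the A-549 libraries.

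Among the 5 hairpins antisense to RTL1, miR-127-3p was the most abundant. This miRNA, known to target the transcriptional repressor BCL6, had 933 and 762 reads in A-549 (360 ± 14.4 library CPM), 0 and 10 in Huh-7, 0 and 3 in ES-2, and 2 and 0 in MV-3. It followed miR-493-5p with 20.9% and 20.5% of the reads of the group. miR-432-5p had 312 and 308 reads in A-549 (133 ± 23.1 library CPM), 4 and 21 in Huh-7, 0 and 2 in ES-2, and 3 and 1 in MV-3. It was the only member with a read in every library of MV-3 and of Huh-7.

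The remaining members antisense to RTL1 were low even in A-549. miR-431-5p stood at 57.7 and 59.7 library CPM in the A-549 libraries, from 277 reads in all, and had 0 and 20 reads in Huh-7, 0 and 7 in ES-2, and 2 and 0 in MV-3. miR-136-3p had 169 and 96 reads in A-549, 0 and 2 in Huh-7, 0 and 2 in ES-2, and 0 in both MV-3 libraries. Its partner miR-136-5p had 19 and 29 reads in A-549 and 0 and 6 in Huh-7, with 0 in ES-2 and MV-3. miR-433-3p, known to target the fibroblast growth factor FGF20, had 26 and 47 reads in A-549, 1 and 6 in Huh-7, 0 and 1 in ES-2, and 0 and 1 in MV-3. For each of these 4, both A-549 libraries lay above all 6 others, as they did for 22.2% of all tested miRNAs on the normalized scale.

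Within A-549, library CPM fell in the order miR-493-5p, miR-127-3p, miR-432-5p, miR-493-3p (63.1 ± 10.3), miR-431-5p (58.7 ± 1.42), miR-136-3p (54.9 ± 11.8), miR-337-3p (37.1 ± 3.10), miR-433-3p (16.3 ± 9.24), miR-136-5p (10.6 ± 4.92) and miR-337-5p (2.06 ± 2.91). Neighbors in this order that overlapped between libraries were miR-493-3p with miR-431-5p, miR-431-5p with miR-136-3p, and miR-433-3p with miR-136-5p. The order of abundance did not follow the order on the chromosome. The first hairpin held the highest member and a middle one, and the most abundant member inside RTL1 lay 13.9 kb further on.

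**Figure D2:**
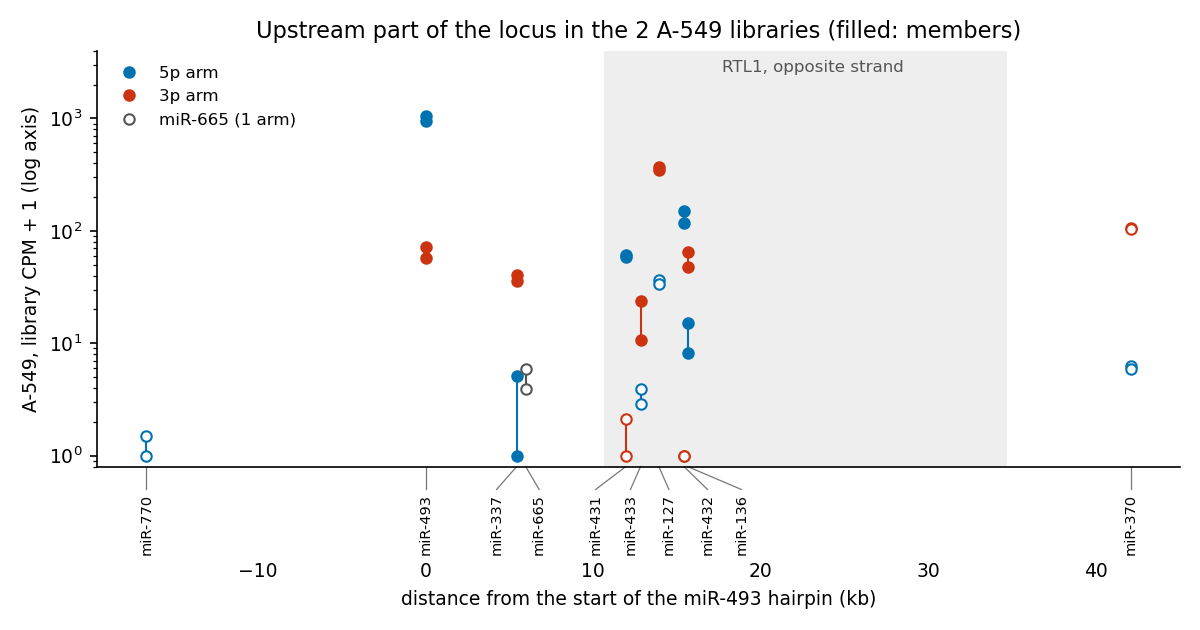
Library CPM plus 1 (log axis) in the 2 A-549 libraries against the distance from the start of the miR-493 hairpin in kb, with filled points for the 10 members, open points for other mature miRNAs of the upstream locus, blue for 5p and red for 3p arms, and the RTL1 gene in gray. miR-493-5p at the start and miR-127-3p within RTL1 stand highest, and miR-770-5p lies at or near 0.

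The make-up of the group in replicate 2 of Huh-7 differed from that in A-549. With 1 library to compare, this does not show a difference between the lines. Replicate 2 of Huh-7, with 132 reads of the group, was the only library outside A-549 with more than 33. There, miR-431-5p took 15.2% of the reads (exact 95% binomial interval 9.51% to 22.4%), against 3.44% and 3.30% in A-549. miR-432-5p took 15.9% (10.1% to 23.3%) against 6.98% and 8.27%, whereas miR-127-3p took 7.58% (3.69% to 13.5%) against 20.9% and 20.5%. For miR-493-5p the share was 44.7% (36.0% to 53.6%) against 57.1% and 58.3%. On 6 reads each, miR-433-3p and miR-136-5p took 4.55% (1.69% to 9.63%). Their A-549 shares were 0.582% and 1.26% for miR-433-3p, and 0.425% and 0.778% for miR-136-5p. In replicate 2 of Huh-7, the intervals of the miRNAs named above lay outside both A-549 shares, and those of the remaining members did not. All of them compare single libraries and were read after the values were seen. The 5 hairpins inside RTL1 together gave 49.2% (40.4% to 58.1%) of the reads of the group in this library and 36.1% and 36.6% in A-549. Replicate 1 of Huh-7, with 15 reads of the group, gave 33.3% (11.8% to 61.6%) for these hairpins. There, miR-431-5p and miR-127-3p had 0 reads and miR-432-5p took 26.7% (7.79% to 55.1%). miR-493-5p and miR-493-3p took 33.3% each (11.8% to 61.6%), against 4.55% for miR-493-3p in replicate 2. In replicate 2 of ES-2, with 33 reads, miR-493-5p took 51.5% (33.5% to 69.2%).

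Folds between lines were large and rested on few reads in the lower line. They pool the reads of the 2 libraries of a line, and their counting intervals leave out the spread between replicates. For miR-493-5p, the Huh-7 replicates stood at 1.41 and 20.1 normalized CPM, and all 17 reads of ES-2 came from replicate 2. On the normalized scale, miR-493-5p was 331-fold higher in A-549 than in ES-2 (counting interval 206 to 569) and 168-fold higher than in Huh-7 (131 to 219). The same comparison with Huh-7 gave 60.8-fold (47.5 to 79.0) in library CPM. Against MV-3, with 2 reads, the ratio was 2635 (729 to 21760). miR-127-3p was 386-fold higher in A-549 than in Huh-7 (209 to 806). That fold was 302 (82.7 to 2503) for miR-136-3p and 201 (54.9 to 1676) for miR-337-3p, each on 2 reads in Huh-7, and these intervals overlap. For miR-432-5p it was 56.4 (37.9 to 87.9), for miR-431-5p 31.5 (20.02 to 52.4), for miR-433-3p 23.7 (11.0 to 61.1) and for miR-136-5p 18.2 (7.78 to 52.1). For miR-493-3p, at 0 in ES-2 and MV-3, A-549 was at least 120-fold higher than ES-2 and at least 113-fold higher than MV-3, computed against 3 reads over the line.

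To set the members beside all measured miRNAs, limma was fitted to log2(normalized CPM + 1) of the 528 miRNAs that passed a filter on low reads. On this scale folds of low miRNAs are understated. Each miRNA has 1 SE for all pairs of lines, from the spread in all 8 libraries. It does not measure the spread of the compared lines alone. 9 of the 10 members were tested. The difference of A-549 over ES-2, MV-3 and Huh-7 was 9.07, 10.17 and 7.87 for miR-493-5p (SE 1.36) and 8.55, 8.57 and 8.16 for miR-127-3p (SE 0.87). The lowest differences were those of miR-136-5p, at 4.15, 4.15 and 3.34 (SE 0.56). Across the 9, the median difference was 6.004, 6.51 and 5.59, against 0.00, 0.08 and -0.09 for all miRNAs tested.

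At an adjusted p below 0.01, 9 of 9 members were called higher in A-549 in each of these 3 comparisons. Of all miRNAs tested, 23.7% were called higher in A-549 than in ES-2, 24.1% than in MV-3 and 28.6% than in Huh-7. The members were chosen with these levels known, so the counts describe the choice and nothing is read from them. Both A-549 libraries lay above the 6 others for 9 of the 10 members, against 22.2% of all tested miRNAs on the normalized scale (117 of 528, or 74 of 528 in library CPM). The 3 comparisons share the A-549 libraries. Member calls fell in the fits that follow, and fewer of all tested miRNAs were called in each of them too. With a pseudocount of 0.1 the calls were 5, 6 and 3 over ES-2, MV-3 and Huh-7. Of all 528 miRNAs, that pseudocount gave 182, 172 and 228 calls in either direction, against 218, 209 and 276 in the main fit. Without A-549 replicate 2 the calls were 5, 4 and 4 over ES-2, MV-3 and Huh-7, without ES-2 replicate 1 they were 5 over ES-2, and without MV-3 replicate 1 they were 5 over MV-3.

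**Figure D3:**
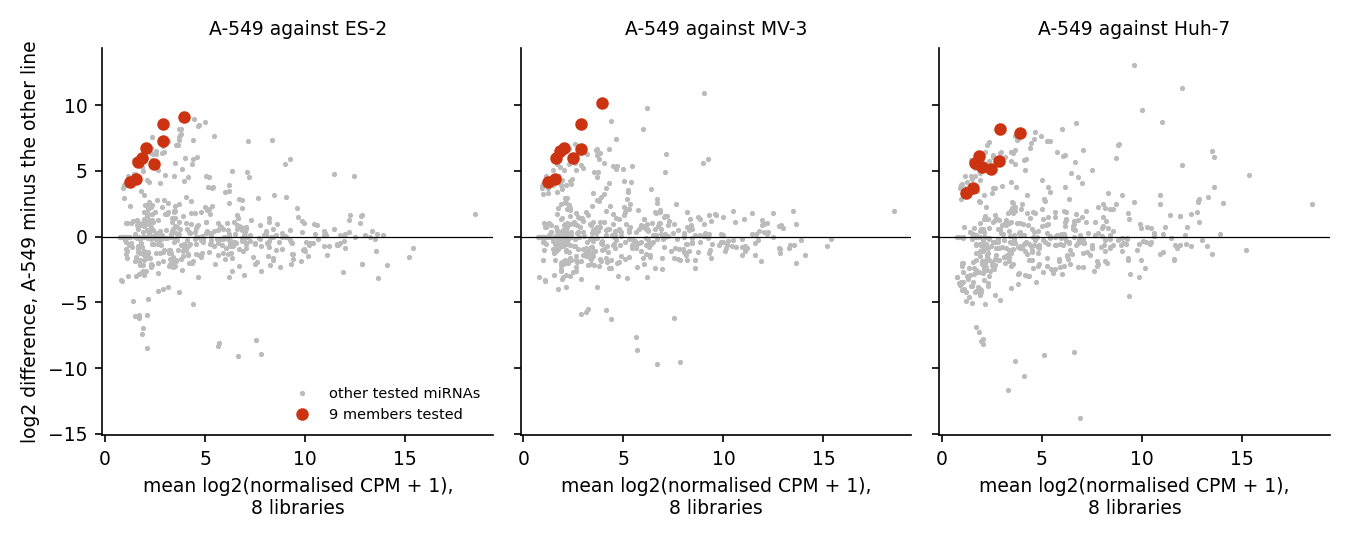
Log2 difference of A-549 minus ES-2, MV-3 or Huh-7 (1 panel each) against the mean log2(normalized CPM + 1) over 8 libraries, with the 9 tested members in red and the other tested miRNAs in gray. The members lie between 3.34 and 10.17 above 0 at low to middle mean levels.

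The 3 lines with low levels can hardly be compared with each other, because 8 of the 9 tested members are too low in them to pass the filter without A-549. miR-493-3p, with 5 and 6 reads in Huh-7 against 0 in ES-2 and MV-3, was called higher in Huh-7 than in each, at a log2 difference of 1.44 (SE 0.28). That SE came from all 8 libraries, and the ES-2 and MV-3 libraries at 0 added no spread to it. The background was 27.7% of tested miRNAs called higher in Huh-7 against ES-2 and 26.9% against MV-3, and nothing is read from this call. Neither call was made by edgeR, DESeq2, a fit without the filter or any fit without 1 library of the pair. Between MV-3 and ES-2, with at most 17 reads of any member in a library, limma called 0 of 9 members, with 0 at an unadjusted p below 0.05 and 0 also by edgeR and DESeq2, where 25.8% of all tested miRNAs were called by limma in either direction. At this depth the count of 0 does not show that the lines are alike.

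The summed levels of the upstream and downstream groups differed between the replicates of Huh-7 and of ES-2. In library CPM, replicate 2 of Huh-7 held 11.1 times the level of replicate 1 (counting interval 6.51 to 20.5) for the 10 members and 10.0 times (7.70 to 13.2) for 74 downstream names. In ES-2, replicate 2 held at least 7.97 times the level of replicate 1 for the members and 9.55 times (5.18 to 19.6) for the downstream names. For A-549 these ratios were 1.08 and 0.959. Single names were not shifted evenly. In Huh-7, the downstream miR-409-3p had 4 and 57 reads and miR-369-3p 18 and 39, whereas miR-493-3p had 5 and 6. In ES-2, miR-409-3p had 0 and 17 reads and miR-369-3p 8 and 14. miRNAs outside chromosome 14 with at least 1000 library CPM in another line but under 10 in Huh-7 were looked at beside this. The 4 such names that were high in ES-2 had 8 and 14 reads in replicates 1 and 2 of Huh-7, and the 4 that were high in MV-3 had 12 and 19, with each name higher in replicate 2 in CPM. Of names that were high in A-549, only miR-31-5p was that low in Huh-7, with 2 and 3 reads, and none was that low in ES-2. miR-31-5p was also among the names that were high in ES-2 and in MV-3, so these sets overlap. miR-155-5p, the most abundant name that was high in ES-2, had 0 and 1 reads in Huh-7. In ES-2, 5 names that were high in Huh-7 had 13 and 32 reads, of which miR-483-3p had 0 and 15 and miR-885-5p 0 and 0. In CPM, 3 of these 5 were higher in replicate 2, 1 was higher in replicate 1 and 1 was equal. In MV-3, 4 names that were high in Huh-7 had 12 and 34 reads, also each higher in replicate 2. A-549 did not share the lean to replicate 2 seen in Huh-7 and MV-3. There, 3 names that were high in MV-3 had 34 and 11 reads, each higher in replicate 1. The 3 that were high in ES-2 had 30 and 18 reads, and the 5 that were high in Huh-7 had 31 and 30. The part of traces from other lines, A-549 included, in the levels of the members was not tested. Replicate 2 of ES-2 and of Huh-7 were also left out together, in an analysis added after their values were seen. ES-2 and Huh-7 then had 1 library each, and fewer members and fewer of all miRNAs were called. The log2 difference of A-549 over ES-2 and Huh-7 was then 9.23 and 9.23 for miR-127-3p, against 8.55 and 8.16 with all libraries. For miR-136-5p it was 4.15 and 4.15, against 4.15 and 3.34.

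Arm shares within a hairpin do not depend on library scaling. For miR-431, miR-433, miR-127 and miR-432 the group holds only the dominant arm, so which arm leads there comes with the choice of members, whereas both arms of miR-493, miR-337 and miR-136 are members. In A-549, the 5p arm dominated in 3 of the 7 hairpins, with 94.1% ± 1.30 of the reads of miR-493 (SD, n = 2), 99.0% ± 1.35 of miR-431 and 100% of miR-432. For miR-432-3p, 0 of 312 and 0 of 308 reads allow a share of up to 0.962% and 0.974%. The 3p arm dominated in the other 4, with 95.3% ± 6.71 of miR-337, 91.3% ± 0.820 of miR-127, 86.3% ± 3.40 of miR-433 and 83.3% ± 9.26 of miR-136. The median share of the dominant arm was 94.1% in the group and 97.1% over 198 hairpins in A-549, of which 50.5% had more 5p than 3p reads.

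miR-136 had the lowest mean share of the dominant arm, which rests on replicate 2, since in replicate 1 miR-433 was lower (83.9%, exact 95% interval 66.3% to 94.5%). The 3p arm of miR-136 held 89.9% of the reads in replicate 1 (exact 95% interval 84.7% to 93.8%) and 76.8% in replicate 2 (68.4% to 83.9%), intervals that did not overlap between libraries of the same line. In replicate 2 of Huh-7 the arms of miR-136 had 6 and 2 reads, with 5p ahead, which is too few to order them. The arm ratio could be compared between lines for miR-493 only, in A-549 against Huh-7. The 5p share was 93.1% and 94.98% in A-549, and 50% and 90.8% in Huh-7, on 10 and 65 reads. The log2 ratio of 5p to 3p reads was 2.40 higher in A-549 (SE 1.96, 95% interval -2.47 to 7.27), with an adjusted p = 0.584 by limma over all hairpins that could be compared, of which 2.6% were called. The spread in this fit came from all 8 libraries, ES-2 and MV-3 included, where the hairpin had at most 17 reads in a library. The SE, interval and p-value therefore do not measure the spread of A-549 and Huh-7 alone. The Huh-7 replicates were further apart than the lines at this depth.

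**Figure D4:**
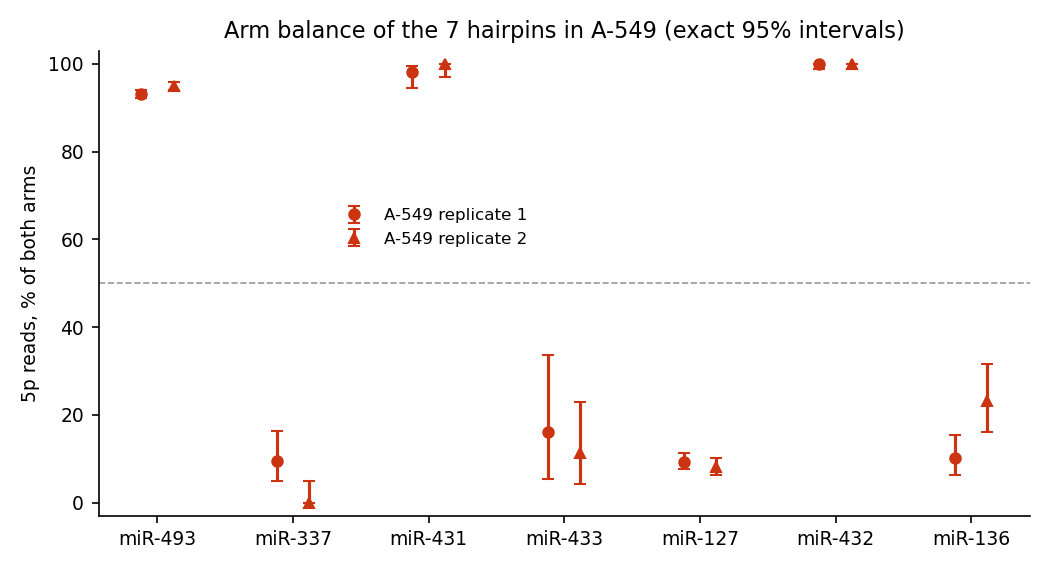
Percent of the reads of both arms that came from the 5p arm for each of the 7 hairpins in A-549, with exact 95% binomial intervals and replicates 1 and 2 as circles and triangles. miR-493, miR-431 and miR-432 lie near the top and the other 4 lie below 25%. miR-136 is the only hairpin whose intervals do not overlap between replicates, and those of miR-493 and miR-337 overlap only slightly.

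Of the arms of these hairpins outside the group, miR-127-5p and miR-433-5p were seen in A-549 only. miR-127-5p had 95 and 67 reads in A-549 and 0 in the 6 other libraries, so that it was at least 123-fold higher on the normalized scale than in Huh-7. miR-433-5p had 5 and 6 reads, in A-549 only. miR-431-3p had 3 and 0 reads in A-549 and 1 in replicate 2 of Huh-7, and miR-432-3p had none in any library.

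The upstream locus also holds miR-770, miR-2392, miR-665 and miR-370. Of these, miR-370-3p, encoded beyond RTL1 and 42.1 kb from the start of miR-493, was the highest, with 281 and 213 reads in A-549. miR-370-5p had 14 and 10 reads there and miR-665, which lies between miR-337 and miR-431, had 13 and 6. miR-770-5p, encoded within MEG3, had 0 and 1 reads in A-549, and miR-2392 had 0 in all libraries. The 2 arms of miR-370 were tested, and both were called higher in A-549 than in each other line. Of all miRNAs tested, 23.7%, 24.1% and 28.6% were called higher in A-549 than in ES-2, MV-3 and Huh-7, and nothing is read from these calls.

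The downstream cluster, from miR-379 to miR-656, is the other large miRNA group of the locus and was counted as 74 mature names from 39 hairpin names. Its summed library CPM was 6923 and 6642 in A-549, 29.4 and 294 in Huh-7, 6.61 and 63.2 in ES-2, and 305 and 298 in MV-3. Its most abundant miRNAs in A-549, miR-369-3p (860 ± 31.8 library CPM), miR-409-3p (806 ± 64.3) and miR-487b-3p (681 ± 55.6), stayed below miR-493-5p and above miR-127-3p. Of the 40 downstream names tested, 40 were called higher in A-549 than in ES-2, 35 than in MV-3 and 40 than in Huh-7, with 34 names not tested. The same calls were made for 23.7%, 24.1% and 28.6% of all miRNAs tested. In A-549, 44 of the 74 names had more than 3 reads in both libraries, against 1 in ES-2, 13 in MV-3 and 5 in Huh-7. With so few names seen outside A-549, nothing is read from these counts.

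The balance of the upstream and downstream groups was set side by side in each line, and the upstream share was lowest in MV-3. The members made up 19.5% (exact 95% interval 18.97% to 19.996%) and 21.4% (20.8% to 22.0%) of the reads of both groups in A-549, and 18.99% (11.0% to 29.4%) and 20.7% (17.6% to 24.04%) in Huh-7. In MV-3 they made up 1.92% (0.774% to 3.91%) and 0.860% (0.235% to 2.19%). Replicate 2 of ES-2 gave 18.5% (13.1% to 25.04%), and replicate 1 gave 0 of 11 reads, which allows a share of up to 27.3%. The MV-3 libraries thus held downstream reads with almost no upstream reads, and their intervals lay below those of every other library but replicate 1 of ES-2. With 2 libraries per line an exact permutation test cannot go below p = 0.333, so no test is given. This share was looked at after the sums had been seen. In MV-3, 13 of the 74 downstream names had more than 3 reads in both libraries, against 5 in Huh-7 and 1 in ES-2, whereas 0 of the 10 members did.

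**Figure D5:**
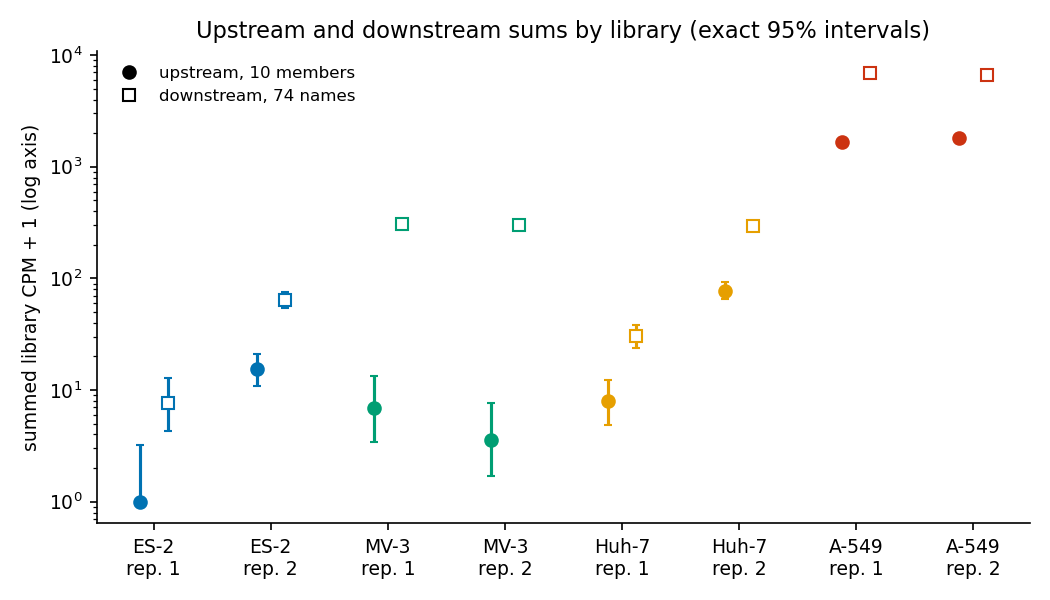
Summed library CPM plus 1 (log axis) of the 10 upstream members (filled circles) and the 74 downstream names (open squares) in each of the 8 libraries, with exact 95% counting intervals. The distance between both sums is widest in the 2 MV-3 libraries, and both sums are higher in replicate 2 than in replicate 1 of ES-2 and of Huh-7.

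Across the 8 libraries, the miRNAs outside the upstream part of the locus whose pattern was most like the summed members came mostly from the downstream cluster. The other arms of the hairpins and the other upstream miRNAs, such as miR-370-3p, were left out of this comparison. Pearson's r of log2(normalized CPM + 1) with the sum was 0.982 for miR-323a-3p, 0.976 for miR-539-5p, 0.972 for miR-411-5p, 0.971 for miR-134-5p and 0.967 for miR-410-3p. Of the 20 highest among 516 miRNAs compared, 19 were downstream names, of which 40 were compared, and the first other was miR-365a-5p from chromosome 16, sixth in order with r = 0.964. These values are a description over 8 libraries from 4 lines, in which A-549 stands far above the rest. Each member's r with the sum of the others was 0.946 to 0.983, except 0.601 for miR-337-5p.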

How the data were processed

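The authors made the small RNA libraries with a NEXTflex kit. Per the submitters' processing notes and the study's methods, reads were trimmed with cutadapt 1.14, aligned to GRCh38 (hg38) with Bowtie2 2.3.2, counted on miRBase miRNAs with featureCounts 1.5.3 and normalized with edgeR 3.18.1. The use of strand, of reads with several alignments and of PCR copies was not given in the sources used here. The deposited values are a normalized signal per miRNA, scaled by the authors with TMM factors. In each library, 100% of these values were whole multiples of a step at a tolerance of 0.001, which gave back the reads and library sizes. The 2813 entries were summed to 2588 names, and each member had 1 entry.

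Samples were grouped by the cell line and replicate number in their titles. limma 3.58.1 (R 4.3.3) was fitted to log2(normalized CPM + 1) over all 8 libraries with a term per line and a mean-dependent prior, for 6 pairs of lines, after filterByExpr had left 528 miRNAs. Benjamini-Hochberg adjustment ran over these 528, and the threshold was an adjusted p of 0.01. Arm ratios were fitted with limma over all 8 libraries, for hairpins with at least 10 reads in each library of a pair and 0.5 added to each arm. Shares have exact Clopper-Pearson intervals and read ratios exact conditional intervals, both at 95%. The fits were checked on simulated reads. edgeR 4.0.16 and DESeq2 1.42.0 on the recovered reads, other scalings, filters, pseudocounts and left-out libraries were alternatives.

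Members and lists were chosen with earlier results of these data known. Named miRNAs are the 10 members, the other arms of their hairpins and the other upstream miRNAs. Outside these, the 5 most alike in pattern (Pearson's r with the summed members) are named. So are the 3 most abundant downstream names in the highest line and the 2 most abundant trace miRNAs. miR-365a-5p was named after its value was seen. Hairpin positions came from GENCODE, which uses the build of the files, and mature sequences from RefSeq.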

Additional observations from a re-analysis of the deposited data

How the results depend on the processing

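No called difference changed direction under any alternative run. Differences that were not called did change sign, in 11, 7 and 11 of 133 values each for Huh-7 against ES-2, Huh-7 against MV-3 and MV-3 against ES-2. For miR-493-5p in Huh-7 against ES-2, 1.19 became -0.45 without ES-2 replicate 1. With a pseudocount of 0.1, 5 members were called over ES-2, 6 over MV-3 and 3 over Huh-7 in place of 9 in each. edgeR called 8 and DESeq2 7 members in each comparison with A-549. Leaving out single libraries gave 5 to 7 calls for A-549 against ES-2, 4 to 7 against MV-3 and 4 to 9 against Huh-7. The call of miR-493-3p in Huh-7 against ES-2 and against MV-3 (1 each) became 0 with no filter, with edgeR, with DESeq2, without ES-2 replicate 2 and Huh-7 replicate 2 together, and in each leave-one-out fit (0 to 0). Without those 2 libraries, the log2 difference of A-549 over ES-2 was 10.7 for miR-493-5p, against 9.07 with all libraries. With the replicate number as a block, the calls for A-549 were 9, 9 and 9 and those of both Huh-7 pairs 0. Of all 528 miRNAs, 207, 208 and 279 were called in these A-549 comparisons, in either direction. The deviations of same-numbered libraries over 528 miRNAs had r = 0.232 for ES-2 with Huh-7 and -0.050 to 0.086 for the other pairs of lines. The main fits did not pair the samples by number. What lies behind the higher value for ES-2 with Huh-7 was not tested. The cause of these lost calls was not tested. Scaling by library size only moved the median of all tested miRNAs in A-549 against ES-2, MV-3 and Huh-7 by -0.28, -0.61 and -1.28 on the log2 scale. With it, 4 of 27 member calls were lost. Calls among all 528 miRNAs, in either direction, rose to 252, 241 and 355, from 218, 209 and 276. The summed level in A-549 was 1741 library CPM, 2900 as deposited normalized CPM and 736 without miR-493-5p. No hairpin of the group was called for its arm ratio under any alternative that could be run, and at least 20 reads per library left none to test. Depth limits mainly the lines outside A-549, where 3 reads can decide a fold.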
